A study of Mus musculus with 12 samples.

Results

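The genes for translation initiation factors were taken as every gene with a single symbol that begins with Eif1, Eif2, Eif3, Eif4, Eif5 or Eif6. There were 47 of them among 18194 named genes, measured by 133 of the 45101 probe sets on the array. Each gene was read from its probe set with the highest mean over the 12 arrays, as log2(intensity + 1), which is called its level here. A gene was tested if its level was at least 5 on at least 2 arrays, which held for 45 of the 47 genes and for 9930 named genes in all. Eif2ak2, an eIF2 kinase, and Eif4a3, a helicase of the exon junction complex, had levels between 3.31 and 3.79 on all arrays and were not tested. Eif1, Eif2s1, Eif3g, Eif3j, Eif4e1b, Eif4g1 and Eif4ebp3 were not analysed here.

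Total RNA of ICR mouse embryos was measured in 6 groups with 2 arrays each. Embryos treated with 20 µM U0126, an inhibitor of the kinase MEK, which activates ERK, were collected at day 2.5 while arrested with 4 cells. Embryos released from that arrest were collected at day 3.5, with 8 cells, and at day 4.5, as morulae to blastocysts. Control embryos had no inhibitor and were collected at day 1.5 with 2 cells, at day 2.5 with 4 to 8 cells and at day 3.5 as morulae to blastocysts. The labels give neither the number of embryos per array nor the hours of exposure. Although the series text mentions 2 independent experiments, no label names separate cultures or litters. The spread behind every p-value is that between these arrays and may be technical. In such whole-embryo RNA, fewer cells of a type and less RNA per cell cannot be told apart.

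Most mRNAs are translated after the protein eIF4E binds their 5′ cap and, with the scaffold eIF4G and the helicase eIF4A, draws in the small ribosomal subunit. That subunit carries eIF3, eIF1, eIF1A and the complex of eIF2, GTP and initiator tRNA. It scans to the start codon, where eIF5 and eIF5B complete the joining of the large subunit. eIF2B recharges eIF2 with GTP, kinases that phosphorylate eIF2 block this step, and the eIF4E-binding proteins hold eIF4E until mTOR phosphorylates them. The mouse embryo first translates mRNAs stored in the oocyte and turns on most of its own genes at the 2-cell stage, so the supply of initiation factors passes from stored to newly made transcripts.

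Promoter sequences are shown for 3 of the 4 genes that were higher under U0126 and for Eif4e, which was lower at the last stage of both series. Each runs over the 250 bases before a transcription start in RefSeq annotation on GRCm38.p6, plus strand, 5′ to 3′. Capitals mark the E-box CACGTG, a palindrome that reads the same on both strands and is bound by Myc and related factors.
Eif5a2, chr3:28781027-28781276: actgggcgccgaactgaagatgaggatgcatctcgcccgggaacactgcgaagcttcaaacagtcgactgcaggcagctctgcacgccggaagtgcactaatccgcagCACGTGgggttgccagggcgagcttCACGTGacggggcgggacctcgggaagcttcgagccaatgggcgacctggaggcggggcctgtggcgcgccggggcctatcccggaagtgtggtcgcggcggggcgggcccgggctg
Eif1b, chr9:120492356-120492605: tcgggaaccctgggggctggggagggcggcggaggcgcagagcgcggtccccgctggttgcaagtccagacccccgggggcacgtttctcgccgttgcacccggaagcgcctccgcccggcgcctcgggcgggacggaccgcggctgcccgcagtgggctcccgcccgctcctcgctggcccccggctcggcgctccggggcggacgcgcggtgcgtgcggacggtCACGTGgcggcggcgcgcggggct
Eif4enif1, chr11:3202103-3202352: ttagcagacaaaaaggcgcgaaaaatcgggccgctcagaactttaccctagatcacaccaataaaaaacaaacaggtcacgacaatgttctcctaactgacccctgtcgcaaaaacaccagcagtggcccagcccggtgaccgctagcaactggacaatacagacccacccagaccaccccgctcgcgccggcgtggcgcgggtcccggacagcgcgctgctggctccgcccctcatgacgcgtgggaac
Eif4e, chr3:138527018-138527267: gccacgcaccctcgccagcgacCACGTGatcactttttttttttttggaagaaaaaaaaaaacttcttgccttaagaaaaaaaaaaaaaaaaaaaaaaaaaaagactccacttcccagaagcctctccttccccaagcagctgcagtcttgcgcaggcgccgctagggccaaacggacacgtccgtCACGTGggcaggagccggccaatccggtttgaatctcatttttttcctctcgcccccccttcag
The Eif5a2 promoter held 2 E-boxes, 142 and 117 bases before the start, and the Eif1b promoter held 1, at 24 bases. This Eif4e promoter held 2, at 228 and 64 bases, while another Eif4e promoter, at chr3:138525941-138526190 and not shown, held none. None was found in the Eif4enif1 promoter shown or in the other promoters of that gene. RefSeq promoters matched 38 of the 47 genes, 51 promoters in all, and 10 of these (19.6%) held the motif. It stood in 1978 of all 32851 promoters (6.02%). Promoters of a gene can overlap and share a motif, as some of Eif5a do. By gene, 8 of the 38 (21.1%) held it, against 1854 of all 27025 genes with a promoter (6.86%). These matches describe the letters only, and binding was not measured.

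Within-group Pearson correlations between arrays lay between 0.955 and 0.98. The 3 markers of the 2-cell embryo on the array (Zfp352, Btg4 and Zar1) had summed levels of 23.0 to 23.6 in U0126 embryos and 16.7 to 18.3 in control day 2.5 embryos. The 7 markers of morula and blastocyst summed to 45.5 to 49.7 in U0126 embryos and 57.9 to 61.6 in control day 2.5 embryos. Of 20 markers of cumulus, oviduct, sperm and blood cells on the array, 2 reached a level of 5 on any array. Cd68, a macrophage gene, had levels of 7.29 and 6.5 in U0126 embryos against 4.62 and 4.31 in control day 2.5 embryos, and Ovgp1 of the oviduct peaked at 6.35. The other 18 stayed at or below 4.44, and the part of Cd68 in any result was not tested.

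Few initiation factor mRNAs were called in the arrest at the 4-cell stage. Of the 45 genes tested, 4 were higher in U0126 embryos than in control day 2.5 embryos and 0 were lower. Of all genes tested 13.9% were called, 9.21% as higher and 4.72% as lower. The 4 were Eif5a2, a second eIF5A gene, Eif4e3, an eIF4E relative, Eif4enif1, which carries eIF4E into the nucleus, and Eif1b, a relative of the scanning factor eIF1. The median difference was 0.01 over the 45 genes and 0.11 over all 9930. With each array centred on its median, the all-gene median was -0.09, and 3 of the 4 genes remained, Eif1b being the exception (adjusted p = 0.119). Calls rest on an adjusted p under 0.05 from limma throughout. The count was 1 without array 1 of control day 2.5, 2 without array 2 of control day 2.5, 2 without array 1 of U0126 and 3 without array 2 of U0126. With the replicate number as a block, Eif2b5 was also called, as lower (-0.83, adjusted p = 0.0294 against 0.303 without the block), where 20.8% of all genes were. With each gene read as the mean over all its probe sets, 3 of the 45 were higher and 4 lower, against 801 and 448 of all 9930.

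**Figure D1:**
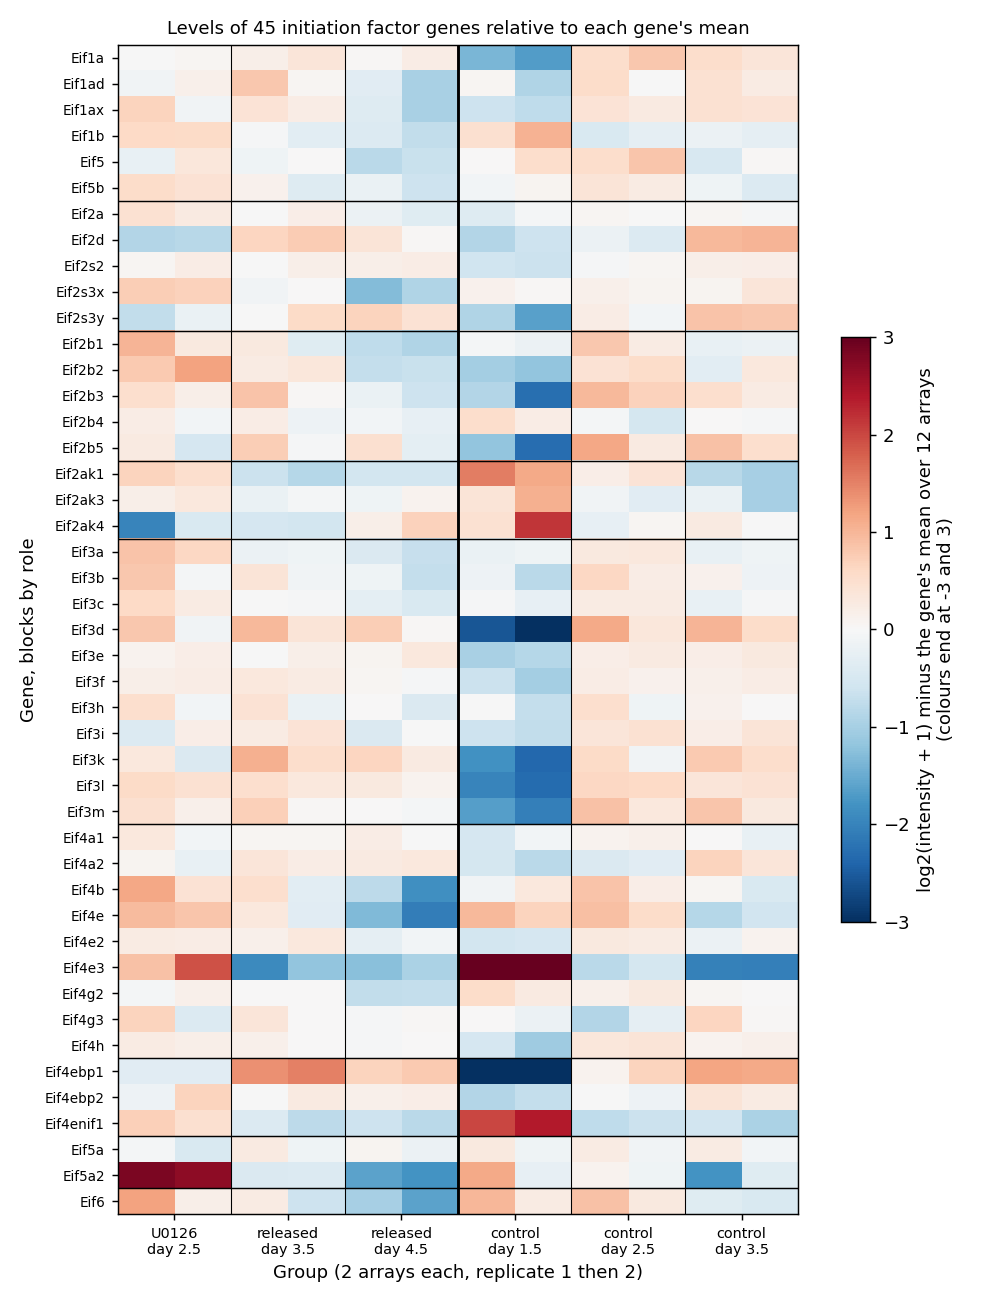
Levels of the 45 tested genes (rows, in blocks by role) on the 12 arrays (columns, 2 per group), as log2(intensity + 1) minus the gene's mean over 12 arrays; colours end at -3 and 3. The control day 1.5 columns stand apart in both directions, and Eif5a2 is highest in the U0126 columns.

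On release, 2 genes were higher and 6 lower in released day 3.5 than in U0126 embryos, against 28.2% of all genes tested, 13.7% higher and 14.5% lower. Eif5a2, Eif4e3, Eif4enif1, Eif2ak1, Eif3a and Eif2s3x were lower and Eif2d and Eif4ebp1 higher. This comparison shares its U0126 arrays with the one above, so genes called high on them there are likely to be lower here. The replicate block raised the count to 3 higher and 10 lower of 45, against 37.6% of all genes. Without array 2 of released day 3.5 the count was 5. One day later, released day 4.5 embryos had 0 genes higher and 3 lower than released day 3.5 embryos (Eif4e, Eif2s3x and Eif2b2), against 13.7% of all genes, 7.37% higher and 6.37% lower. Here the block gave 10 lower and 0 higher, against 21.8% of all genes. The count of 3 was 0 without array 1 of released day 3.5 or array 2 of released day 4.5, with 5 genes at an unadjusted p under 0.05 in each limma fit, and 1 without array 2 of released day 3.5. The median difference of the 45 genes in this step was -0.34, and that of all genes -0.04.

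Against controls of the nearest stage by the labels, few genes differed. The 7 markers of morula and blastocyst summed to 72.0 to 74.3 in released day 3.5 embryos. That is nearer the 73.5 to 78.2 of control day 3.5 than the 57.9 to 61.6 of control day 2.5 embryos. The 3 markers of the 2-cell embryo summed to 19.16 to 19.35 in released day 3.5 embryos. Control embryos had 16.7 to 18.3 at day 2.5 and 11.6 to 13.7 at day 3.5. Released day 3.5 embryos had 2 genes higher (Eif2d and Eif4ebp1) and 1 lower (Eif2ak1) than control day 2.5 embryos, against 12.7% of all genes, 8.61% higher and 4.05% lower. The block gave 2 and 3, against 20.3%. Centring left 0 higher and 1 lower. The mean over all probe sets gave 1 higher and 4 lower, against 773 and 406 of all 9930 genes. No call was left without array 1 of control day 2.5, released array 1 or released array 2, where limma gave 4, 6 and 5 genes at an unadjusted p under 0.05, and 1 was left without array 2 of control day 2.5. Released day 4.5 embryos had only Eif2s3x lower and 0 genes higher than control day 3.5 embryos of the same named stage, against 5.88% of all genes (3.85% higher, 2.03% lower), with 9 members at an unadjusted p under 0.05 in limma. The block gave 3 lower, against 10.2%, and centring 2 lower. The median difference was -0.31 over the 45 genes and -0.03 over all genes, and 7 of 45 differences were above 0.

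Most calls came in the comparisons with the 2-cell stage. Control day 2.5 embryos had 17 genes higher and 5 lower than control day 1.5 embryos, 48.9% of the 45 against 55.4% of all genes tested, 28% higher and 27.4% lower. U0126 embryos had 18 higher and 4 lower than the same day 1.5 controls, also 48.9%, against 50.1% of all genes, 28.1% higher and 22% lower. The block gave 20 and 7 in controls, against 61.8% of all genes, and 25 and 4 in U0126 embryos, against 57.8%. Both comparisons share the control day 1.5 arrays. Control day 3.5 embryos had 2 genes higher and 3 lower than control day 2.5 embryos, against 21.6% of all genes, 13.4% higher and 8.28% lower. Centring gave 1 and 5, and the block 3 and 5, against 31.2%. The count of 5 was 2 without either control day 2.5 array or without array 1 of control day 3.5.

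**Figure D2:**
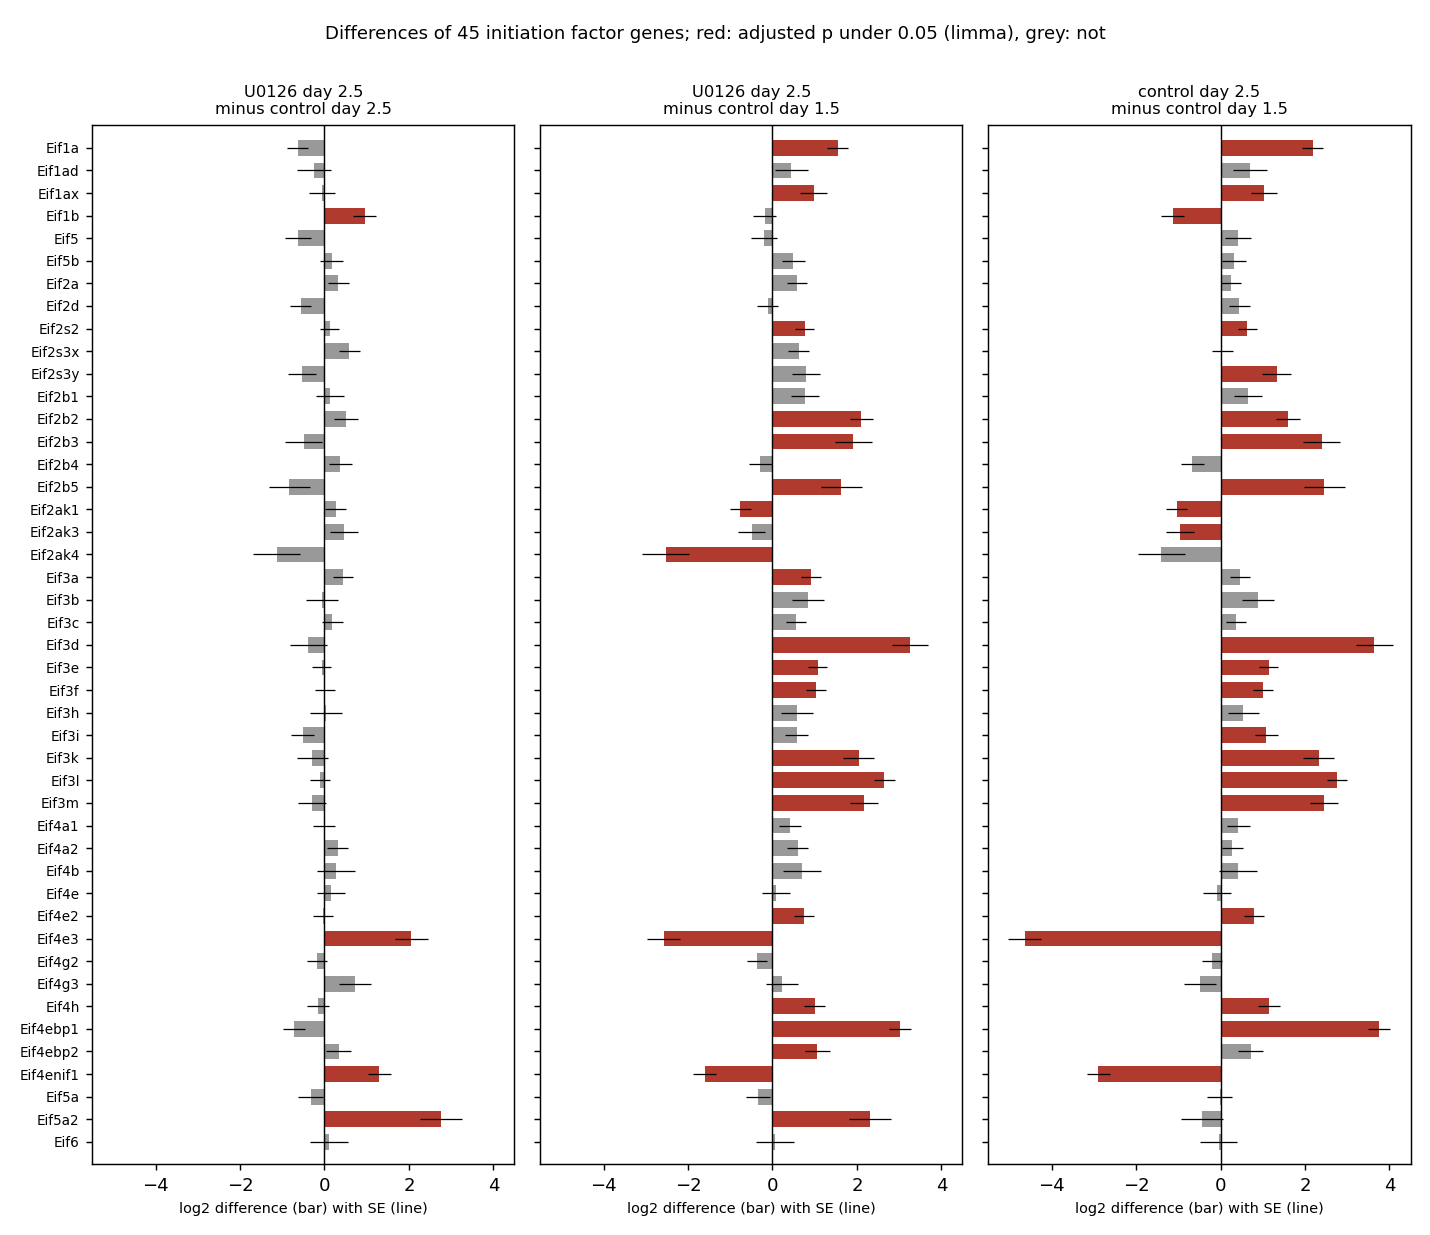
Log2 differences (bars) with standard errors (lines, n = 2 arrays per group) of the 45 genes in 3 comparisons, in the same order as the map of levels; red bars have a limma adjusted p under 0.05. The left panel holds 4 red bars, the middle 22 and the right 22.

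Among the 9 tested genes of the cap complex, Eif4e3 moved most. It encodes a cap-binding relative of eIF4E that lacks part of eIF4E's contact with the cap. In the treated series its level was 7.47 and 8.51 in U0126 day 2.5 embryos, 4.69 and 5.40 in released day 3.5 embryos and 5.35 and 5.66 in released day 4.5 embryos. Control embryos had 10.24 and 10.89 at day 1.5, 5.79 and 6.07 at day 2.5, and 4.56 and 4.55 at day 3.5. Both U0126 arrays thus lay between the control day 1.5 and day 2.5 arrays. U0126 embryos were higher than control day 2.5 embryos by 2.06 ± 0.39 (log2 difference ± SE, n = 2 per group, adjusted p = 0.00844), which lost its call without array 1 of control day 2.5 (adjusted p = 0.0639). It was lower in U0126 than in control day 1.5 embryos (-2.58 ± 0.39, adjusted p = 0.000327) and lower in released day 3.5 than in U0126 embryos (-2.94 ± 0.39, adjusted p = 0.000572). The control step to day 2.5 had a difference of -4.63 ± 0.39 (adjusted p = 4.54e-06). The step to control day 3.5, -1.37 ± 0.39 (adjusted p = 0.0304), ended below the level of 5 on both arrays and is a fall of at least 0.93 to that level. That call was lost without any 1 of its 4 arrays (adjusted p from 0.0828 to 0.143). With the block, Eif4e3 was also lower in released day 3.5 than in control day 2.5 embryos (-0.88, adjusted p = 0.0481 against 0.167).

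The other probe set of Eif4e3, 1417977_at, did not share the U0126 rise. Its levels were 5.27 and 5.09 in U0126 embryos and 5.10 and 5.81 in control day 2.5 embryos, a difference of -0.27 ± 0.44 (adjusted p = 0.756, every probe set fitted on its own). Those arrays overlap. In released day 3.5 minus U0126 embryos it had -0.86 ± 0.44 (adjusted p = 0.174). It was 10.46 and 10.45 in control day 1.5 embryos, so both probe sets fell in the step to control day 2.5. The rise under U0126 therefore rests on 1 of 2 probe sets, and which transcripts each one binds was not analysed here.

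Eif4e, which encodes the main cap-binding protein, was not called in the arrest. It was 13.53 and 13.41 in U0126 embryos, 12.89 and 12.23 in released day 3.5 embryos and 11.25 and 10.51 in released day 4.5 embryos. Levels in controls were 13.55 and 13.24 at day 1.5, 13.49 and 13.13 at day 2.5 and 11.72 and 12 at day 3.5. The difference between U0126 and control day 2.5 embryos was 0.16 ± 0.33 (adjusted p = 0.817), and these arrays overlap. Eif4e was lower in released day 4.5 than in released day 3.5 embryos (-1.68 ± 0.33, adjusted p = 0.00914), without overlap. This call was lost without array 1 of released day 3.5 (adjusted p = 0.0862) or array 2 of released day 4.5 (adjusted p = 0.097). It was likewise lower in controls at day 3.5 than at day 2.5 (-1.45 ± 0.33, adjusted p = 0.0122), with adjusted p = 0.0823 without array 1 of control day 2.5 and 0.101 without array 1 of control day 3.5. In released day 3.5 against U0126 embryos the difference was -0.91 ± 0.33, with an adjusted p of 0.0636, and 0.0269 with the block. On 1423220_at Eif4e was also higher than control day 1.5, by 1.55 ± 0.31 in U0126 embryos (adjusted p = 0.00198) and 1.43 ± 0.31 in control day 2.5 embryos (adjusted p = 0.00248).

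Eif4e2, a cap-binding relative that acts in repression of translation, was higher in controls at day 2.5 than at day 1.5 (0.79 ± 0.24, adjusted p = 0.0146). It was also higher in U0126 than in control day 1.5 embryos (0.75 ± 0.24, adjusted p = 0.0216). Its levels of 12.14 and 12.11 in U0126 embryos lay just under 12.18 and 12.16 in control day 2.5 embryos. The control step lost its call without either control day 2.5 array (adjusted p = 0.0654 and 0.0573). The U0126 call was lost without either U0126 array or array 1 of control day 1.5 (adjusted p from 0.0524 to 0.068).

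The eIF4A helicases unwind the 5′ end of the mRNA. On the probe set used, Eif4a1 had levels between 11.19 and 12.02 on all arrays and was called in none of the 9 comparisons. Its probe set 1427058_at read 10.60 and 10.46 in U0126 embryos, against 9.61 and 9.70 in control day 2.5 and 8.61 and 8.05 in control day 1.5 embryos. There it was higher than control day 1.5 by 2.20 ± 0.28 in U0126 embryos (adjusted p = 0.000106) and by 1.33 ± 0.28 in control day 2.5 embryos (adjusted p = 0.002), and both calls held without any 1 array. The difference between U0126 and control day 2.5 embryos on it, 0.87 ± 0.28, did not pass (adjusted p = 0.0647, with the block 0.0359). On it released day 4.5 embryos were also lower than released day 3.5 embryos (-1.01 ± 0.28, adjusted p = 0.0387), a call lost without any 1 of the 4 arrays (adjusted p from 0.0792 to 0.218). Eif4a2 was 11.90 and 11.58 in U0126 embryos, 12.18 and 12.02 in released day 3.5 embryos and 12.08 and 12.13 in released day 4.5 embryos. In controls it was 11.29 and 11 at day 1.5, 11.37 and 11.48 at day 2.5 and 12.48 and 12.18 at day 3.5. The only call was a higher level in controls at day 3.5 than at day 2.5 (0.90 ± 0.25, adjusted p = 0.028). It was lost without any 1 of the 4 arrays (adjusted p from 0.0502 to 0.189) and after centring (adjusted p = 0.0691). With the block, Eif4a2 was also higher in U0126 than in control day 1.5 embryos (0.60, adjusted p = 0.0361 against 0.0708 without it).

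Among the scaffolds, Eif4g2 encodes a protein related to eIF4G that lacks the eIF4E-binding part, and its 3 tested probe sets differed. On 1452758_s_at, the one used, it was 13.01 and 13.21 in U0126 embryos and 13.22 and 13.36 in control day 2.5 embryos, a difference of -0.18 ± 0.24 (adjusted p = 0.675). On 1428362_at it was 6.98 and 7.67 in U0126 embryos and 10.22 and 9.99 in control day 2.5 embryos. That difference of -2.79 ± 0.33 (adjusted p = 0.00149, and from 0.00237 to 0.0158 without 1 of the 4 arrays) was the largest fall of any initiation factor probe set in this comparison. On the same probe set, released day 3.5 embryos were higher than U0126 embryos (2.48 ± 0.33, adjusted p = 0.000624), and control day 2.5 embryos higher than control day 1.5 embryos (2.31 ± 0.33, adjusted p = 0.000163). The U0126 arrays of this probe set overlapped those of control day 1.5, at 7.44 and 8.16. The third, 1415863_at, was called in none of these 3 comparisons. On the probe set used, Eif4g2 was 0.75 ± 0.24 lower in released day 4.5 than in released day 3.5 embryos (adjusted p = 0.0592, with the block 0.0319) and 0.78 ± 0.24 lower than in control day 3.5 embryos (adjusted p = 0.0827, with the block 0.0458). Eif4g3, an eIF4G relative, ranged from 6.38 to 7.94 and was called nowhere. Eif4b, a helper of the helicase, was 1.41 lower in released day 4.5 than in released day 3.5 embryos on the log2 scale (-1.41, adjusted p = 0.0621, with the block 0.0166). Its other probe sets, 1426378_at and 1426380_at, had differences of -0.19 ± 0.31 and 0.30 ± 0.31 there (adjusted p = 0.753 and 0.6).

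**Figure D3:**
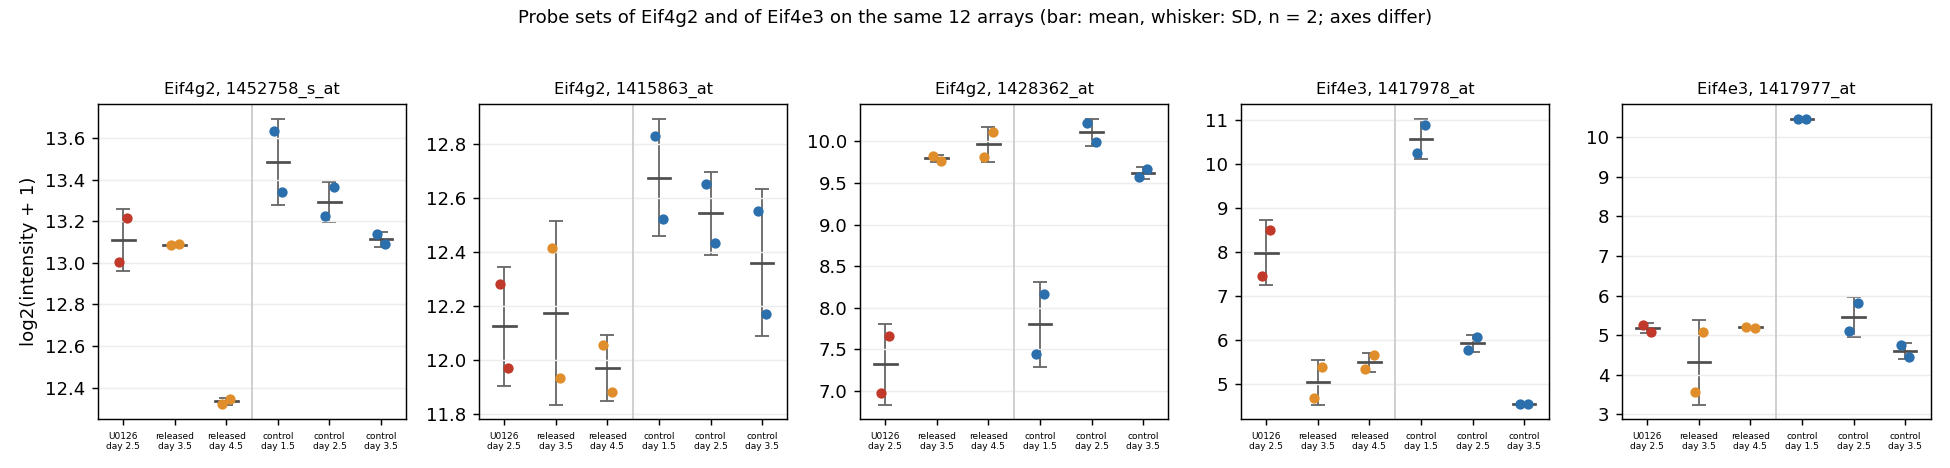
Levels on 12 arrays of the 3 tested probe sets of Eif4g2 and the 2 of Eif4e3 (dots: arrays; bar: mean; whisker: SD, n = 2; the vertical axes differ). On 1428362_at of Eif4g2 the U0126 arrays (6.98 and 7.67) lie far below those of control day 2.5 (10.22 and 9.99), and of the Eif4e3 probe sets 1417978_at is the one with U0126 above control day 2.5.

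Of the 3 genes that bind eIF4E outside the cap complex, Eif4ebp1 had the largest rise of all members in the control step from day 1.5 to day 2.5. It encodes 4E-BP1, the inhibitor that mTOR phosphorylates. Its level was 9.93 and 9.92 in U0126 embryos, 11.63 and 11.77 in released day 3.5 embryos and 10.92 and 11.05 in released day 4.5 embryos. The control arrays were 7.0 and 6.8 at day 1.5, 10.36 and 10.94 at day 2.5 and 11.45 and 11.39 at day 3.5. Control day 2.5 embryos were higher than control day 1.5 embryos by 3.75 ± 0.26 (adjusted p = 1.36e-06), and U0126 embryos by 3.02 ± 0.26 (adjusted p = 9.52e-06). Both U0126 arrays lay below both control day 2.5 arrays, but the difference of -0.73 ± 0.26 did not pass (adjusted p = 0.0924, with the block 0.055). Released day 3.5 embryos were higher than U0126 embryos (1.78 ± 0.26, adjusted p = 0.000975) and than control day 2.5 embryos (1.05 ± 0.26, adjusted p = 0.0266). The last call held without array 2 of control day 2.5 but was lost without any other array of the 4 (adjusted p from 0.0855 to 0.174) and after centring (adjusted p = 0.0753). The control step to day 3.5 was 0.77 ± 0.26 (adjusted p = 0.0586, with the block 0.0346).

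Eif4enif1 encodes 4E-T, which binds eIF4E and is known from oocytes for holding stored mRNA silent. In U0126 embryos it was 8.99 and 8.75, in released day 3.5 embryos 7.88 and 7.49, and in released day 4.5 embryos 7.65 and 7.47. Control embryos had 10.29 and 10.66 at day 1.5, 7.52 and 7.63 at day 2.5 and 7.72 and 7.33 at day 3.5. As with Eif4e3, the U0126 arrays lay between those of control day 1.5 and day 2.5. U0126 embryos were higher than control day 2.5 embryos (1.30 ± 0.27, adjusted p = 0.0123) and lower than control day 1.5 embryos (-1.60 ± 0.27, adjusted p = 0.000663). The first of these was lost without array 1 of U0126 (adjusted p = 0.06) or either control day 2.5 array (adjusted p = 0.0794 and 0.0567). Released day 3.5 embryos were lower than U0126 embryos (-1.19 ± 0.27, adjusted p = 0.00888), a call lost without released array 2 (adjusted p = 0.0741). The control step to day 2.5 was -2.90 ± 0.27 (adjusted p = 9.0e-06).

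Eif4ebp2, the 4E-BP known for its role in neurons, was 8.69 and 9.51 in U0126 embryos against 7.95 and 8.13 in control day 1.5 embryos (1.06 ± 0.30, adjusted p = 0.0122). This was lost without array 2 of U0126 (adjusted p = 0.0907) or array 1 of control day 1.5 (adjusted p = 0.0544). Against 8.84 and 8.68 in control day 2.5 embryos the U0126 arrays overlapped (0.34 ± 0.30, adjusted p = 0.51). In the control step to day 2.5 the difference was 0.72 ± 0.30, with an adjusted p of 0.0595, and 0.0399 with the block.

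**Figure D4:**
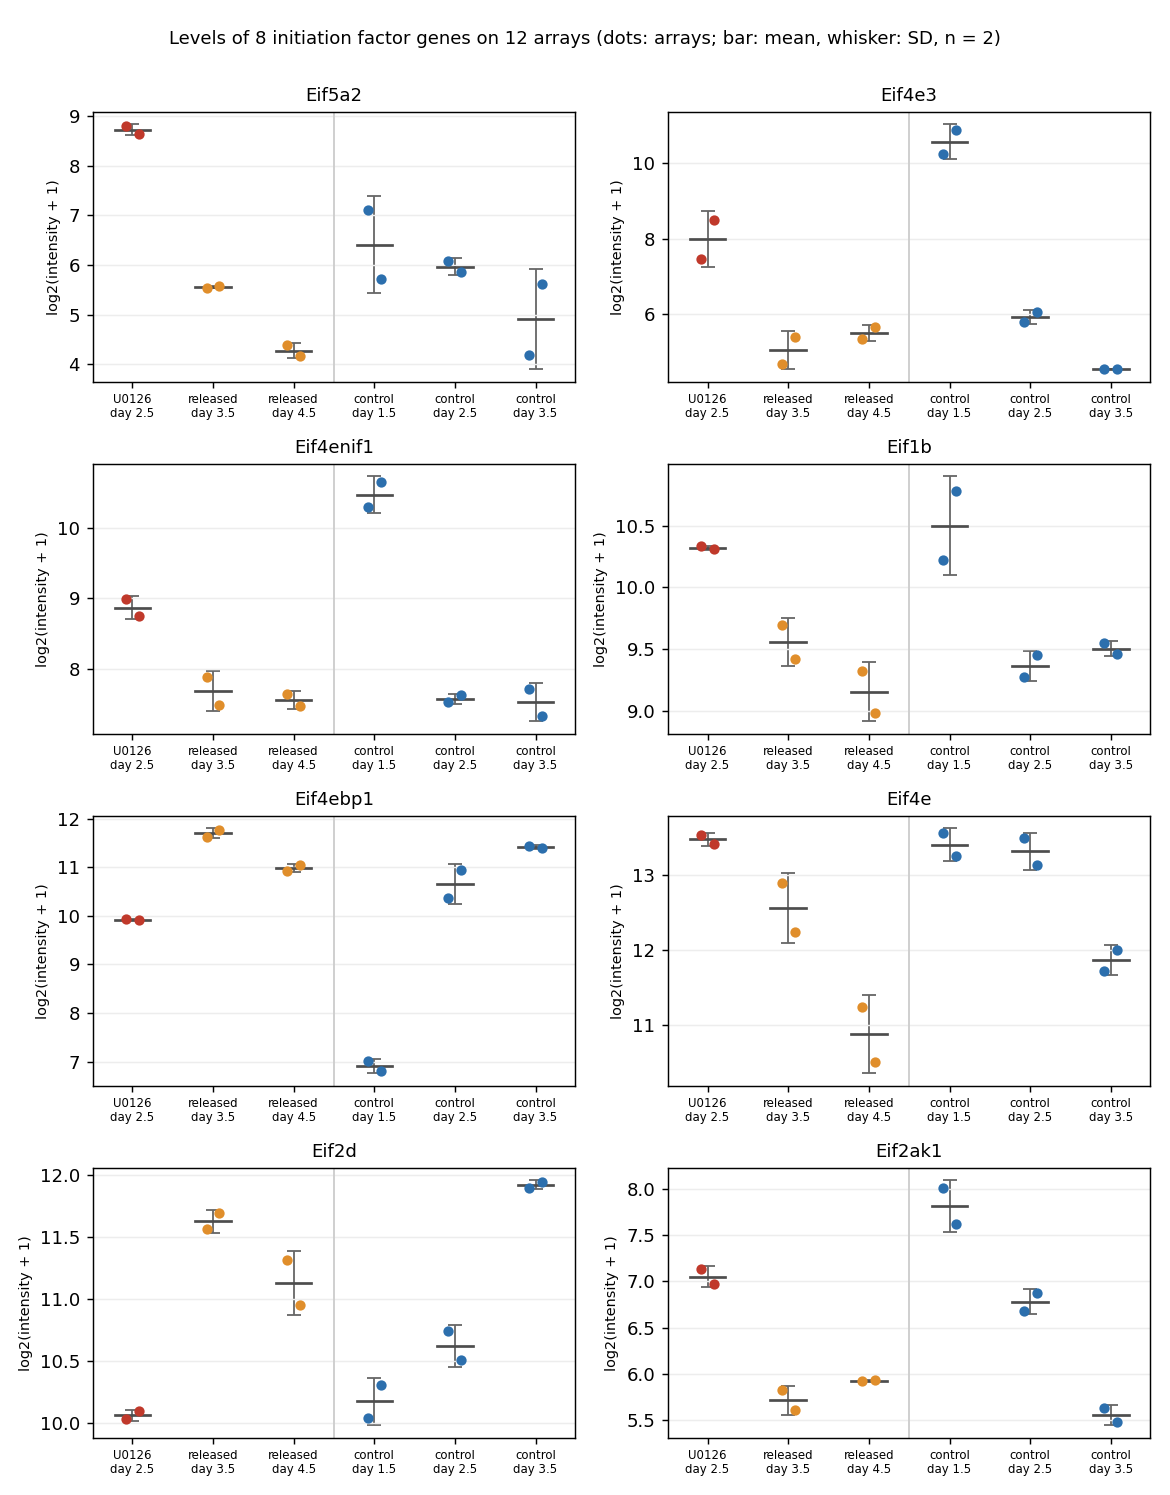
Levels of 8 genes on 12 arrays (dots: arrays; bar: mean; whisker: SD, n = 2; vertical axes differ), the treated series left and the controls right. Eif5a2 is highest in U0126 embryos, Eif4e3 and Eif4enif1 lie there between control day 1.5 and day 2.5, and Eif4e is lowest in released day 4.5 embryos.

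Among the 6 factors of scanning, start codon choice and subunit joining, Eif1b was the only one called under U0126 on the probe set used. It was 10.33 and 10.31 in U0126 embryos, 9.70 and 9.42 in released day 3.5 embryos and 9.33 and 8.99 in released day 4.5 embryos. In controls it was 10.22 and 10.78 at day 1.5, 9.28 and 9.45 at day 2.5 and 9.55 and 9.46 at day 3.5. The U0126 arrays lay within the range of control day 1.5 and above both control day 2.5 arrays. The difference from control day 2.5 was 0.95 ± 0.27 (adjusted p = 0.0425), and it was lost without any 1 of the 4 arrays (adjusted p from 0.095 to 0.199). The control step to day 2.5 was -1.13 ± 0.27 (adjusted p = 0.00463). Released day 3.5 embryos were 0.76 ± 0.27 lower than U0126 embryos (adjusted p = 0.06, with the block 0.0422).

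Eif1a and Eif1ax encode versions of eIF1A, which keeps the small subunit open for scanning. Eif1a was 10.63 and 10.70 in U0126 embryos, against 11.15 and 11.44 in control day 2.5 embryos and 9.27 and 8.96 in control day 1.5 embryos. It was higher in controls at day 2.5 than at day 1.5 (2.18 ± 0.25, adjusted p = 3.42e-05), and so was the U0126 group (1.55 ± 0.25, adjusted p = 0.000476). The U0126 arrays were below both control day 2.5 arrays, with a difference of -0.63 ± 0.25 that did not pass (adjusted p = 0.123). On its other probe set, 1424344_s_at, Eif1a was 8.58 and 9.61 in U0126 embryos and 10.33 and 10.94 in control day 2.5 embryos, a fall of 1.54 ± 0.39 that passed (adjusted p = 0.0277). It did not pass without array 1 of U0126 (adjusted p = 0.151) or either control day 2.5 array (adjusted p = 0.0615 and 0.166).

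The 3 probe sets of Eif1ax differed in the size of the U0126 difference. On the probe set used it was 11.97 and 11.19 in U0126 embryos and 11.71 and 11.56 in control day 2.5 embryos (-0.06 ± 0.31, adjusted p = 0.944), with overlap. On 1437071_at and 1449576_at the difference was -1.64 ± 0.42 (adjusted p = 0.029) and -1.30 ± 0.33 (adjusted p = 0.0303). The first was lost without array 1 of U0126 or either control array (adjusted p from 0.0969 to 0.157), and 1449576_at without array 2 of U0126 or either control array (adjusted p from 0.094 to 0.154). Control day 2.5 embryos were higher than control day 1.5 embryos on all 3, by 1.03 ± 0.31 (adjusted p = 0.0161) on the probe set used, where the call was lost without array 2 of control day 1.5 (adjusted p = 0.0706) or array 1 of control day 2.5 (adjusted p = 0.0801). U0126 embryos were higher than control day 1.5 embryos by 0.98 ± 0.31 (adjusted p = 0.0238), lost without array 1 of U0126 (adjusted p = 0.181) or either control array (adjusted p = 0.0523 and 0.0947). Released day 4.5 embryos, at 10.92 and 10.34, were below both control day 3.5 arrays, at 11.75 and 11.72, by 1.11 ± 0.31 (adjusted p = 0.066, with the block 0.0226). They were also 0.99 ± 0.31 below released day 3.5 embryos (adjusted p = 0.0605, with the block 0.0204). Of the other scanning and joining factors, Eif5, whose protein makes eIF2 hydrolyse its GTP, was called under U0126 on 1 further probe set, 1456256_at (-1.47 ± 0.29, adjusted p = 0.00965, and 0.0756 without array 2 of control day 2.5). With the block the used probe set of Eif5 was lower in released day 4.5 than in released day 3.5, in released day 3.5 than in control day 2.5 and in controls at day 3.5 than at day 2.5 (adjusted p = 0.0482, 0.0374 and 0.012). With the block Eif1ad was also lower in released day 4.5 than in released day 3.5 embryos (-1.08, adjusted p = 0.0296).

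The 5 genes of eIF2 and of tRNA delivery held 0 calls between U0126 and control day 2.5 embryos in limma. Eif2d, whose protein can place tRNA on the ribosome without eIF2, was called in more comparisons than any other of the 5 on the probe set used. Its level was 10.03 and 10.09 in U0126 embryos, 11.56 and 11.69 in released day 3.5 embryos and 11.31 and 10.95 in released day 4.5 embryos. Control levels were 10.04 and 10.31 at day 1.5, 10.74 and 10.5 at day 2.5 and 11.89 and 11.94 at day 3.5. Released day 3.5 embryos were higher than U0126 embryos (1.56 ± 0.25, adjusted p = 0.00146) and than control day 2.5 embryos (1.0 ± 0.25, adjusted p = 0.0265). Control day 3.5 embryos were higher than control day 2.5 embryos (1.30 ± 0.25, adjusted p = 0.00537). The call against control day 2.5 in released embryos was lost without any 1 of the 4 arrays (adjusted p from 0.0746 to 0.158) and after centring (adjusted p = 0.0813).

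The last step of Eif2d differed between the series. Its difference was -0.50 in released embryos (day 4.5 minus day 3.5), against 1.30 in controls (day 3.5 minus day 2.5). Both steps end at morula and blastocyst, but the released one starts from 8 cells and the control one from 4 to 8 cells. Eif2d itself started at 11.56 and 11.69 in released day 3.5 and at 10.74 and 10.5 in control day 2.5 embryos. The 7 markers of morula and blastocyst summed to 72.0 to 74.3 and 57.9 to 61.6 in these starting groups. The 3 markers of the 2-cell embryo summed to 19.16 to 19.35 and 16.7 to 18.3, with Zfp352 higher and Btg4 lower in released day 3.5 embryos. The part of the unlike starts in the interaction was not tested. The interaction was -1.79 ± 0.35 (adjusted p = 0.029), the only call among 45 genes, against 2.34% of all genes tested, 1.02% higher and 1.32% lower. It was lost without any 1 of the 8 arrays (adjusted p from 0.0631 to 0.136) and after centring (adjusted p = 0.0532), where Eif2ak1 alone was called instead (1.59, adjusted p = 0.044). With the block 4 genes were called, against 6.19% of all genes. These were Eif2d (adjusted p = 0.0178), Eif4ebp1 (-1.48, adjusted p = 0.035), Eif2ak1 (1.43, adjusted p = 0.0293) and Eif4e3 (1.83, adjusted p = 0.0282). The Eif2ak1 calls come from the probe set used, with 5.92 and 5.93 in released day 4.5 against 5.83 and 5.61 in released day 3.5. On 1421900_at released day 4.5 was lower instead, at 4.73 and 4.86 against 6.36 and 5.56. On 1421901_at these groups overlapped, at 5.86 and 5.41 against 6.38 and 5.53. Of the 4 tested probe sets of Eif2d, 1437720_at showed neither rise, with -0.56 ± 0.29 in released day 3.5 minus U0126 (adjusted p = 0.176) and -0.13 ± 0.29 in control day 3.5 minus day 2.5 (adjusted p = 0.81). The other 3 were called higher in both.

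Eif2s3x and Eif2s3y are the X- and Y-linked genes for the gamma subunit of eIF2, which holds GTP and the initiator tRNA. Eif2s3x was 11.70 and 11.66 in U0126 embryos, 10.87 and 10.98 in released day 3.5 embryos and 9.67 and 10.07 in released day 4.5 embryos. The control arrays were 11.10 and 11.01 at day 1.5, 11.13 and 11.06 at day 2.5 and 11.05 and 11.33 at day 3.5, so the control arrays stayed within 0.32 of each other. Released day 4.5 embryos were lower than control day 3.5 embryos by 1.32 ± 0.25 on the log2 scale (-1.32, adjusted p = 0.0133). This was lost without array 2 of control day 3.5 (adjusted p = 0.149) or either released array (adjusted p = 0.113 and 0.0501). They were lower than released day 3.5 embryos (-1.05 ± 0.25, adjusted p = 0.0198), and those lower than U0126 embryos (-0.76 ± 0.25, adjusted p = 0.0426). Each of the last pair was lost without any 1 of its 4 arrays (adjusted p from 0.0588 to 0.136, and from 0.0963 to 0.161). The other probe sets, 1423744_x_at and 1451090_a_at, did not show either fall of released day 4.5 embryos. Against control day 3.5 they had differences of -0.067 ± 0.28 and -0.12 ± 0.30 (adjusted p = 0.949 and 0.894), and 0.038 ± 0.28 and 0.011 ± 0.30 between released day 4.5 and day 3.5 embryos (adjusted p = 0.956 and 0.987).

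Eif2s3y was 7.68 and 8.23 in U0126 embryos, 8.4 and 9.0 in released day 3.5 embryos and 9.09 and 8.86 in released day 4.5 embryos. In controls it was 7.53 and 6.79 at day 1.5, 8.64 and 8.33 at day 2.5 and 9.29 and 9.23 at day 3.5. It was called once, higher in controls at day 2.5 than at day 1.5 (1.33 ± 0.34, adjusted p = 0.00615), and not without array 2 of control day 1.5 (adjusted p = 0.0562). The U0126 arrays lay below both control day 2.5 arrays (-0.53 ± 0.34, adjusted p = 0.341). The share of male embryos per array was not measured. With the block, Eif2s3x and Eif2a, another factor that can deliver tRNA, were also higher in U0126 than in control day 1.5 embryos (0.62 and 0.58, adjusted p = 0.0322 and 0.0469).

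The 3 tested kinases of eIF2 had their highest mean level at the 2-cell stage on the probe sets used. Eif2ak1, the haem-regulated kinase, was 7.13 and 6.97 in U0126 embryos, 5.83 and 5.61 in released day 3.5 embryos and 5.92 and 5.93 in released day 4.5 embryos. Levels in controls were 8.01 and 7.62 at day 1.5, 6.68 and 6.87 at day 2.5 and 5.63 and 5.48 at day 3.5. It was lower in released day 3.5 than in U0126 embryos (-1.33 ± 0.25, adjusted p = 0.00321). It was lower in controls at day 3.5 than at day 2.5 (-1.22 ± 0.25, adjusted p = 0.00699), lost without array 2 of control day 2.5 (adjusted p = 0.0545). It was lower in released day 3.5 than in control day 2.5 embryos (-1.06 ± 0.25, adjusted p = 0.0214), lost without any 1 of the 4 arrays (adjusted p from 0.0633 to 0.134). Against control day 1.5, the differences were -1.03 ± 0.25 in control day 2.5 embryos (adjusted p = 0.00466) and -0.76 ± 0.25 in U0126 embryos (adjusted p = 0.0258, lost without array 2 of U0126 or array 1 of control day 1.5, at 0.0917 and 0.12). Its other tested probe sets went the other way in the U0126 comparison with day 1.5. They gave 0.31 ± 0.43 on 1421900_at (adjusted p = 0.585) and 1.6 ± 0.39 on 1421901_at (adjusted p = 0.00605). On 1421901_at the control step to day 2.5 was 0.90 ± 0.39 (adjusted p = 0.0725). The direction of Eif2ak1 after the 2-cell stage thus depends on the probe set. The falls after day 2.5 were called on 1 of the 3 tested probe sets of Eif2ak1, each fitted on its own. On 1421900_at control day 2.5 embryos had 6.30 and 5.89, released day 3.5 embryos 6.36 and 5.56 and control day 3.5 embryos 5.60 and 6.18. On 1421901_at these groups had 6.48 and 5.55, 6.38 and 5.53, and 5.87 and 5.33. On both, the control day 2.5 arrays overlapped those of the later groups.

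Eif2ak3 encodes PERK, the kinase of endoplasmic reticulum stress, and had levels of 8.03 and 8.70 in control day 1.5 embryos, the highest of any group. Control day 2.5 embryos were lower (-0.95 ± 0.33, adjusted p = 0.0282), a call that held only without array 1 of control day 1.5 when 1 array was left out (adjusted p from 0.059 to 0.187 without the others). Eif2ak4 encodes GCN2, the kinase of amino acid shortage. It was 4.15 and 5.67 in U0126 embryos, against 6.59 and 8.28 in control day 1.5 embryos (-2.53 ± 0.56, adjusted p = 0.00354) and 5.89 and 6.19 in control day 2.5 embryos (-1.13 ± 0.56, adjusted p = 0.221). The control step to day 2.5 was -1.40 ± 0.56 (adjusted p = 0.0544, with the block 0.0256). In U0126 embryos 1 of the arrays lay under the level of 5.

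Of the 5 genes of eIF2B, the exchange factor that recharges eIF2 with GTP, 3 were higher in controls at day 2.5 than at day 1.5, and 3 were higher in U0126 than in control day 1.5 embryos. Of all genes 28% and 28.1% were higher in these comparisons. Eif2b2, the beta subunit, was 11.47 and 11.87 in U0126 embryos against 9.65 and 9.48 in control day 1.5 embryos (2.10 ± 0.28, adjusted p = 0.000139). Both U0126 arrays were above the 11.10 and 11.22 of control day 2.5 embryos, where the difference of 0.51 ± 0.28 did not pass. Eif2b3, the gamma subunit, rose by 2.40 ± 0.44 (adjusted p = 0.000875) and Eif2b5, the catalytic epsilon subunit, by 2.46 ± 0.48 (adjusted p = 0.00139) in the control step. Eif2b2 was lower in released day 4.5 than in released day 3.5 embryos, at 9.96 and 10.01 against 10.91 and 11.01 (-0.98 ± 0.28, adjusted p = 0.0426). That was lost without any 1 of the 4 arrays (adjusted p from 0.148 to 0.172) and after centring (adjusted p = 0.0558). With the block Eif2b2 was also lower in released day 3.5 than in U0126 embryos (-0.70, adjusted p = 0.0446), and Eif2b1, the alpha subunit, in released day 4.5 than in released day 3.5 embryos (-0.81, adjusted p = 0.0486). In the control step to day 2.5 the block added Eif2b1 as higher and Eif2b4, the delta subunit, as lower (adjusted p = 0.0489 and 0.0176), and it called Eif2b1 higher in U0126 than in control day 1.5 embryos (0.78, adjusted p = 0.025).

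The 11 genes of eIF3, the many-part scaffold on the small subunit, were mostly higher after the 2-cell stage. All 11 differences were above 0 in control day 2.5 minus control day 1.5, with 7 called higher and 0 lower and a median of 1.09, where 28% of all genes were called higher and their median was 0.09. U0126 minus control day 1.5 gave the same count, 7 higher and 0 lower, with a median of 1.03, beside 0.18 over all genes. Between U0126 and control day 2.5 embryos 0 of 11 were called, with differences from -0.52 to 0.44 and a median of -0.07.

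Eif3d, a subunit known to bind the cap of some mRNAs, rose most. It was 12.24 and 11.32 in U0126 embryos, against 12.56 and 11.77 in control day 2.5 embryos and 8.87 and 8.18 in control day 1.5 embryos. The difference from control day 1.5 was 3.26 ± 0.44 in U0126 embryos (adjusted p = 0.000148) and 3.64 ± 0.44 in control day 2.5 embryos (adjusted p = 4.83e-05). Eif3l was higher by 2.65 ± 0.24 in U0126 embryos (adjusted p = 1.27e-05) and 2.76 ± 0.24 in control day 2.5 embryos (adjusted p = 5.8e-06), against control day 1.5. Eif3m was higher by 2.16 ± 0.33 (adjusted p = 0.000367) in U0126 embryos and 2.45 ± 0.33 (adjusted p = 0.000118) in control day 2.5 embryos. Every one of these calls held without any 1 array. Eif3a, the largest subunit, was 12.42 and 12.48 in released day 3.5 embryos against 13.46 and 13.23 in U0126 embryos (-0.90 ± 0.23, adjusted p = 0.0167). That call was lost without array 1 of U0126 or either released array (adjusted p from 0.0683 to 0.0801). The other probe sets of Eif3a were also lower in released day 3.5 embryos, but by unlike amounts. On 1416659_at they had 10.59 and 10.68 against 10.88 and 10.70 in U0126 embryos. On 1416660_at it was 7.39 and 6.73 against 8.05 and 7.87, and on 1416661_at 8.39 and 7.85 against 8.62 and 8.43. In the same comparison the block added Eif3k as higher (0.84, adjusted p = 0.0131 against 0.112). Against control day 1.5, the block added Eif3b in control day 2.5 embryos (0.90, adjusted p = 0.00514) and Eif3b, Eif3c and Eif3h in U0126 embryos (adjusted p = 0.00814, 0.0447 and 0.0447).

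eIF5A helps the ribosome past stalling sequences such as runs of proline, and is the one protein that carries the amino acid hypusine. Its main gene, Eif5a, ranged from 13.62 to 14.37 and was called in none of the 9 comparisons. Eif5a2, its second gene, was 8.80 and 8.65 in U0126 embryos, 5.54 and 5.57 in released day 3.5 embryos and 4.38 and 4.17 in released day 4.5 embryos. Control levels were 7.11 and 5.72 at day 1.5, 6.09 and 5.85 at day 2.5 and 4.19 and 5.62 at day 3.5. Both U0126 arrays were above all 10 other arrays. U0126 embryos were higher than control day 2.5 embryos by 2.75 ± 0.49, or 6.74-fold (adjusted p = 0.00659), and the call held without any 1 of the 4 arrays (adjusted p from 0.0212 to 0.0416). They were higher than control day 1.5 embryos by 2.31 ± 0.49 (adjusted p = 0.00281). Released day 3.5 embryos were lower than U0126 embryos (-3.17 ± 0.49, adjusted p = 0.0013). The released day 4.5 arrays lay below the level of 5, and the difference from released day 3.5, -1.28 ± 0.49, was not called. Only 1 probe set of Eif5a2 reached the level for testing. Its promoter is among those printed above, with 2 E-boxes.

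Eif6, whose protein keeps the ribosomal subunits apart, was 12.56 and 11.54 in U0126 embryos against 12.24 and 11.65 in control day 2.5 embryos, which overlap (0.11 ± 0.44). On 1431582_at it was 5.73 and 5.45 in U0126 embryos against 6.5 and 6.75 in control day 2.5 embryos, a fall of 1.03 ± 0.28 (adjusted p = 0.0354) that was lost without any 1 of the 4 arrays (adjusted p from 0.0639 to 0.177). With the block the used probe set was lower in released day 3.5 than in U0126, in released day 4.5 than in released day 3.5 and in controls at day 3.5 than at day 2.5 (adjusted p = 0.024, 0.0149 and 0.0168). Over all members, 98 probe sets could be tested, and between U0126 and control day 2.5 embryos 3 were called higher and 6 lower, against 12.4% of 16572 probe sets. The 6 lower ones belong to Eif1a, Eif1ax (2), Eif4g2, Eif5 and Eif6, and none is the probe set used for its gene. In that fit Eif1b was not called.

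Paralogues were compared by the within-array difference of their levels, and only its change between groups is read. Relative to the mean of control day 1.5, the log2 ratio of Eif5a2 to Eif5a was 2.54 and 2.77 in U0126 embryos, above the -0.49 and -0.36 of control day 2.5 embryos. That of Eif4e3 to Eif4e was -3.23 and -2.07 in U0126 embryos and -4.86 and -4.23 in control day 2.5 embryos. This gap rests on the Eif4e3 probe set used, since 1417977_at did not share the U0126 rise. The ratio of Eif4e2 to Eif4e was 1.17 and 2.01 in released day 3.5 and 2.40 and 3.33 in released day 4.5 embryos, and in controls 0.72 and 1.04 at day 2.5 and 2.03 on both arrays of day 3.5. In both series it was higher at the later stage. Eif4e was called lower in both of these steps, while Eif4e2 had differences of -0.40 ± 0.24 in released embryos and -0.30 ± 0.24 in controls that did not pass (adjusted p = 0.294 and 0.401). The ratio of Eif4ebp1 to Eif4ebp2 was 2.38 and 1.54 in U0126 embryos, below the 2.66 and 3.40 of control day 2.5 embryos. That of Eif1a to Eif1ax overlapped, at 0.14 and 1.0 in U0126 embryos against 0.93 and 1.36 in control day 2.5 embryos. The ratio of Eif4a2 to Eif4a1 was 0.14 and 0.22 in U0126 embryos, above the -0.18 and -0.12 of control day 2.5 embryos, a gap within the 0.72 that separated both control day 1.5 arrays. With Eif4a1 read from 1427058_at, the U0126 arrays lay below those of control day 2.5 instead. The ratio of Eif2s3y to Eif2s3x reached 3.31 and 2.68 in released day 4.5 embryos, against 2.13 and 1.79 in control day 3.5 embryos. The lower Eif2s3x behind that gap was called on the probe set used, but not on 1423744_x_at or 1451090_a_at, where these arrays overlap. With 2 arrays a group these ratios are descriptions without a test.

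**Figure D5:**
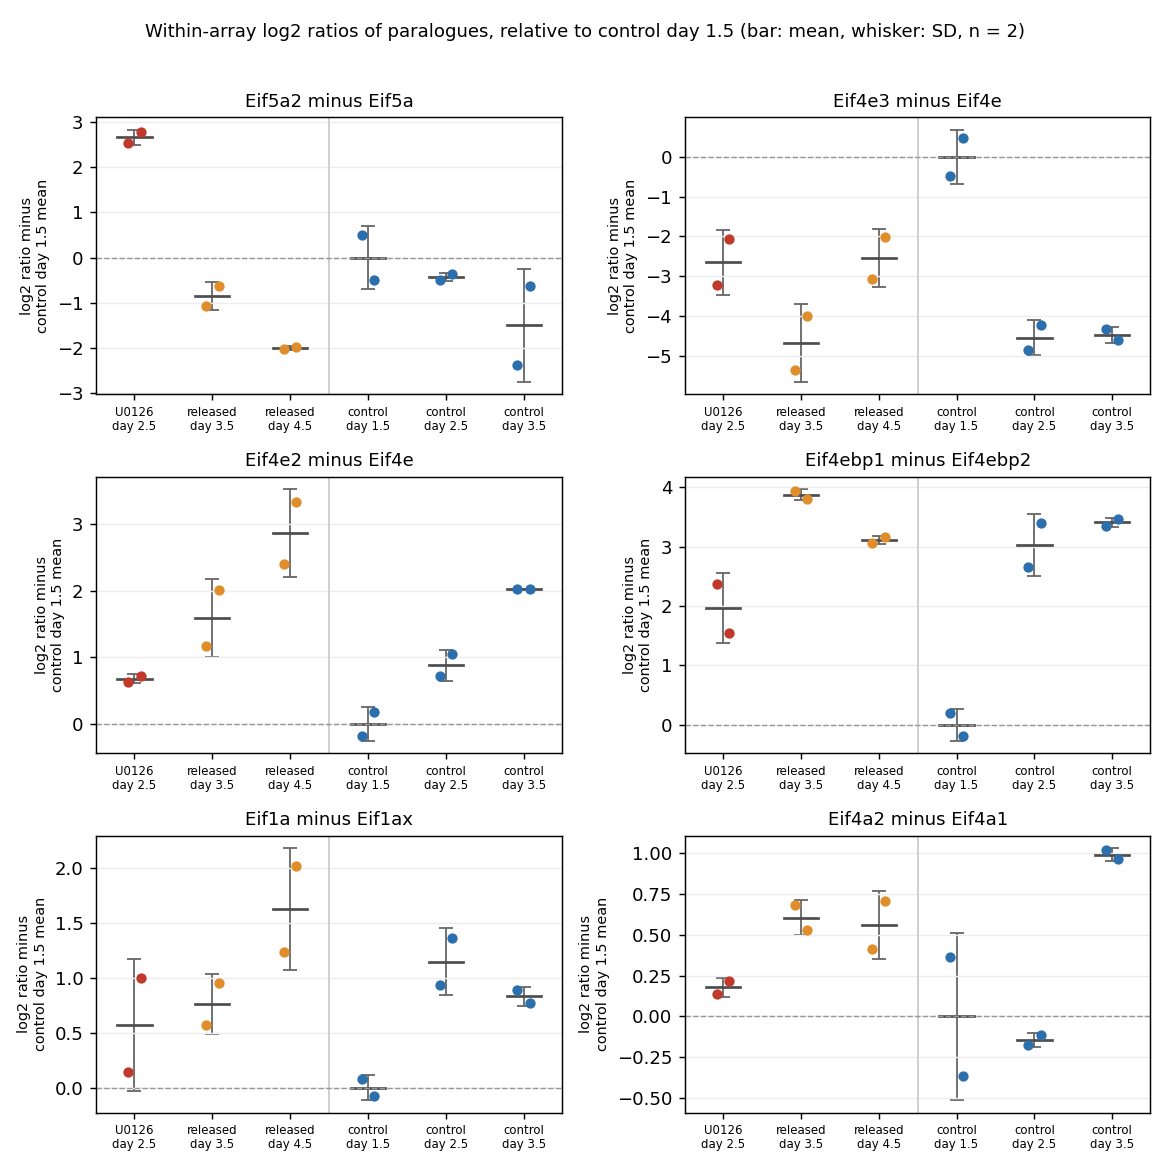
Log2 ratio of 6 pairs of paralogues within each array, relative to the mean of control day 1.5 (dots: arrays; bar: mean; whisker: SD, n = 2; vertical axes differ). The ratio of Eif5a2 to Eif5a is highest in U0126 embryos, and that of Eif4e2 to Eif4e is higher at the last stage of both series.

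Other genes of the same pathway were read from 2 lists. Of 41 tested partners and regulators of initiation, 4 were higher in U0126 than in control day 2.5 embryos and 0 lower, near the share over all genes (13.9% called, 9.21% higher). Cpeb1, which controls stored oocyte mRNAs through their tails, had levels of 8.05 and 6.12 in U0126 embryos and 3.97 and 3.85 in control day 2.5 embryos (3.18 ± 0.65, adjusted p = 0.0117). Both control arrays lay under the level of 5, and the mean of the U0126 arrays was 2.08 above that level. Lsm14b, of oocyte mRNA storage granules, was higher by 1.81 ± 0.46 (adjusted p = 0.0284), Gigyf2, a partner of eIF4E2, by 1.35 ± 0.31 (adjusted p = 0.0194) and Rictor, of mTOR complex 2, by 1.12 ± 0.30 (adjusted p = 0.0343). Without array 1 of control day 2.5 none of the 4 was called (adjusted p from 0.0631 to 0.192), without array 2 of it Cpeb1 (0.0595) and Rictor (0.0877) were lost, and without array 1 of U0126 only Lsm14b was left. Without array 2 of U0126, Lsm14b was lost (adjusted p = 0.114). The block raised the 4 to 7, adding Lsm14a, Pdcd4 and Trib3, where 20.8% of all genes were called. In released day 3.5 against U0126 embryos 1 of the 41 was higher and 12 lower, against 28.2% of all genes (13.7% higher, 14.5% lower), and 0 and 5 without either released array. The eIF4E kinases Mknk1 and Mknk2, which act downstream of ERK, were not called between U0126 and control day 2.5 embryos (0.80 ± 0.30, adjusted p = 0.104, and 0.35 ± 0.36, adjusted p = 0.588). Mknk1 was lower in released day 3.5 than in U0126 embryos (-1.18 ± 0.30, adjusted p = 0.014), but not without array 1 of U0126 (adjusted p = 0.0695) or of released day 3.5 (adjusted p = 0.116). The eIF2 phosphatase subunits Ppp1r15a and Ppp1r15b were not called under U0126 either (0.43 ± 0.36, adjusted p = 0.5, and -0.26 ± 0.30, adjusted p = 0.642). Ppp1r15a was lower in controls at day 2.5 than at day 1.5 by more than any initiation factor other than Eif4e3 (-4.21 ± 0.36, adjusted p = 5.41e-06).

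Of 14 tested elongation and termination factors, 1 was higher and 1 lower under U0126, near the 13.9% of all genes. Gspt2, a second eRF3 gene, had levels of 7.96 and 7.71 in U0126 embryos and 6.06 and 6.19 in control day 2.5 embryos (1.70 ± 0.27, adjusted p = 0.00391). Eef1b2, of the elongation factor 1 exchange complex, had levels of 12.61 and 12.66 in U0126 embryos and 13.83 and 13.87 in control day 2.5 embryos (-1.21 ± 0.24, adjusted p = 0.0102). The arrays did not overlap in either. Gspt2 held without any 1 of the 4 arrays, while Eef1b2 did not pass without either control array (adjusted p = 0.0628 and 0.0581). In the control step to day 2.5 this list had 7 genes higher and 2 lower, and the list of partners 6 higher and 15 lower, against 55.4% of all genes called.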

How the data were processed

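The 12 arrays (Affymetrix, 1 colour) were hybridised with RNA amplified in 2 rounds from an input of 0.1 µg, per the labels' protocols. The authors used GeneChip Operating Software 1.2 and GeneSpring 7.3, per the series text, and GCRMA, per the submitters' processing notes. The deposited values are linear intensity per probe set, with no counts or depth, so the number of arrays limits the precision. Which GeneSpring scaling was applied is not stated. Median intensity per array lay between 10.8 and 11.5.

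From the deposited intensity, log2(intensity + 1) was taken with no further normalization. Of the probe sets, 34958 had 1 gene symbol in the platform annotation, 932 several and 9211 none. All 47 members were found by symbol in RefSeq GRCm38.p6, and 6 initiation factor probe sets with several symbols were left out. All 9930 tested genes entered 1 limma 3.58.1 fit (R 4.3.3, lmFit, contrasts.fit, eBayes) with a mean per group, and p-values were adjusted by Benjamini-Hochberg over all of them. An exact test of 2 against 2 arrays cannot go below p = 0.333. The scripts were checked on simulated data. Python 3.11.15 and pandas 2.3.3 made the tables.

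Same-numbered arrays deviated together in all 15 pairs of groups (r from 0.125 to 0.417). The labels do not say what same-numbered arrays share. A fit with the replicate number as a block was therefore an alternative. The others were median centring, a pseudocount of 16, no filter, the mean over all probe sets, only the arrays compared, and leaving out each array. Fitting every probe set, and leaving out arrays or adding the block for probe sets and pathway lists, was added after seeing the data.

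The members and lists were chosen with earlier results of these data known. Named were all members called under U0126, in released day 4.5 against control day 3.5 or in the interaction, the 6 largest rises and falls elsewhere, and the paralogue families and eIF2 kinases. Of the lists, genes called under U0126 (up to 8), Mknk1, Mknk2, Ppp1r15a and Ppp1r15b were named. Genes called only with the block or on another probe set, and a few subunits, were named after their values were seen.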

Additional observations from a re-analysis of the deposited data

Results flagged for a closer look

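The interaction of Eif2d, the released step from day 3.5 to day 4.5 minus the control step from day 2.5 to day 3.5, was -1.79 (adjusted p = 0.029 in limma). It stands here because the last step differed between the series by a test of that difference. As given in the results, that call was lost after centring and without any 1 of the 8 arrays. The steps do not start alike, with 8 cells in released day 3.5 and 4 to 8 cells in control day 2.5 embryos. The 7 markers of morula and blastocyst summed to 72.0 to 74.3 and 57.9 to 61.6 in these groups. The 3 markers of the 2-cell embryo summed to 19.16 to 19.35 and 16.7 to 18.3, with Zfp352 higher and Btg4 lower in released day 3.5 embryos. The released arrays were 11.31 and 10.95 at day 4.5 and 11.56 and 11.69 at day 3.5, against control arrays of 11.89 and 11.94 at day 3.5 and 10.74 and 10.5 at day 2.5. No tests of single arrays against their group were possible with 2 arrays a group.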

How the results depend on the processing

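Of 69 calls of a gene in a comparison, the replicate block kept all 69, and it changed no other call than those given in the results. Leaving out 1 array kept 39 in every such fit. A pseudocount of 16 kept 68, no filter 67, median centring 60, the mean over all probe sets 56 and fitting only the arrays compared 44.

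Counts of members called that moved by over 1.5 times are given next. The range without 1 replicate is given for every comparison, moved or not. With the mean over all probe sets, the 4 higher and 0 lower of U0126 minus control day 2.5 became 3 higher and 4 lower. The 2 higher and 1 lower of released day 3.5 minus control day 2.5 became 1 higher and 4 lower. U0126 minus control day 2.5 (4) gave 7 with the mean over all probe sets, 0 with only the arrays compared (4 at an unadjusted p under 0.05 in limma) and 1 to 3 without 1 replicate. Released day 3.5 minus U0126 (8) gave 13 with the replicate block, 5 with only the arrays compared and 5 to 7 without 1 replicate. Released day 4.5 minus released day 3.5 (3) gave 6 with a pseudocount of 16, 10 with the replicate block and 0 to 2 without 1 replicate. Released day 3.5 minus control day 2.5 (3) gave 1 with median centring, 5 with the mean over all probe sets, 5 with the replicate block, 0 with only the arrays compared (6 unadjusted in limma) and 0 to 1 without 1 replicate. Released day 4.5 minus control day 3.5 (1) gave 2 with median centring, 3 with a pseudocount of 16, 3 with no filter, 3 with the replicate block, 0 with the mean over all probe sets (8 unadjusted in limma), 0 with only the arrays compared (11 unadjusted) and 0 to 1 without 1 replicate. Control day 3.5 minus day 2.5 (5) gave 8 with the mean over all probe sets, 8 with the replicate block and 2 to 4 without 1 replicate. U0126 minus control day 1.5 (22) gave 14 with only the arrays compared and 19 to 20 without 1 replicate. Control day 2.5 minus day 1.5 (22) gave 18 to 24 without 1 replicate. The interaction (1) gave 2 with a pseudocount of 16, 3 with no filter, 4 with the replicate block, 2 with only the arrays compared and 0 in every fit without 1 replicate (5 to 8 unadjusted in limma).

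Direction turned for Eif4e3 in U0126 minus control day 2.5 (-0.27 on 1417977_at), Eif2d in released day 3.5 minus U0126 (-0.56) and in control day 3.5 minus day 2.5 (-0.13, both on 1437720_at), Eif2s3x in released day 4.5 minus day 3.5 (0.038 and 0.011), Eif2ak1 in control day 2.5 minus day 1.5 (0.90 on 1421901_at) and in U0126 minus control day 1.5 (0.26 with the mean over probe sets, 0.31 on 1421900_at, 1.6 on 1421901_at), and Eif2s2 in U0126 minus control day 1.5 (-0.49 on 1448819_at). The cause was not tested.

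Median centring moved the all-gene median from 0.11 to -0.09 in U0126 minus control day 2.5, from 0.09 to -0.11 in released day 3.5 minus control day 2.5, from 0.09 to -0.12 in control day 3.5 minus day 2.5, from 0.18 to 0.02 in U0126 minus control day 1.5 and from -0.13 to 0.04 in the interaction, so differences of that size have no firm sign. With 2 arrays a group the median standard error of a difference was 0.35, and differences that missed the threshold do not show equal levels.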
